A study of Homo sapiens with 6 samples.

Results

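The delta protocadherins are a family of cell adhesion genes, and 8 of them were followed here among the 63190 genes of the deposited table: PCDH1, PCDH7 and PCDH9 of the delta-1 subgroup, and PCDH8, PCDH10, PCDH17, PCDH18 and PCDH19 of the delta-2 subgroup. The genes were taken by family, and the family was chosen by the RPKM values of PCDH19, known to be low in every D391N library, so that the contrast of PCDH19 is given as a description without a test. All 44 transcripts whose gene identifier belongs to these 8 genes were included, out of 207167 transcripts in all.

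Delta protocadherins are single-span membrane proteins of the cadherin superfamily with a short row of extracellular cadherin repeats. They are best known from the developing nervous system, where they mediate selective contacts between cells and guide neurites and synapses, and they are also found in epithelia such as the kidney. The cytoplasmic tails separate the subgroups: delta-1 tails carry a motif that binds protein phosphatase 1, whereas tails of several delta-2 members recruit the WAVE complex, which activates branched actin assembly by Arp2/3.

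The RNA-seq compared 3 libraries of cells overexpressing the D391N form of DIS3L2 with 3 control libraries that the series text describes as empty cells. DIS3L2 is a 3′-5′ exoribonuclease that degrades uridylated RNA, and D391N is a substitution in its catalytic site. The labels name the line HEK293, a human embryonic kidney line, and the methods of the study name HEK293T-Rex FlipIn, a derivative with the tetracycline repressor in which doxycycline switches on an integrated construct. The sources used here do not say whether the control cells received doxycycline, and they do not give separate cultures for the replicates, so p-values measure only the spread between these samples, which may be technical. The line of the D391N libraries differs from that of the controls, and each group has 1 line, so that construct and line cannot be told apart. RNA was total RNA depleted of rRNA, and 3 libraries that are not named were sequenced together in 1 lane, so that lane and condition may also coincide. In bulk samples such as these, fewer cells with a transcript cannot be told apart from less of it per cell.

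Levels are RPKM, in which reads are divided by transcript length and by library size, and a gene level is the sum over its transcripts. Fold changes are D391N minus control on the scale of log2(RPKM + 0.1), which understates the change of low genes, and the limma test was run on the 20714 genes that averaged 1 RPKM or more. DIS3L2 itself had levels of 369, 467 and 512 RPKM (D391N replicates 1, 2 and 3) and 11.8, 12.9 and 14.6 RPKM (control replicates 1, 2 and 3), a log2 fold change of 5.08 (SE 0.18, limma adjusted p = 0.000268). Depth, estimated from the listed level of transcripts that no read matched, was 0.678 to 0.865 of the deepest library in the D391N libraries and 0.672 to 1.0 in the controls. Control libraries correlated with each other at Pearson r of 0.959 to 0.977 over the tested genes and D391N libraries at 0.885 to 0.935, and D391N replicate 2 stood farthest from the controls (0.824 to 0.865) and D391N replicate 1 nearest (0.938 to 0.956). Of 10 HEK293 markers, 9 passed the filter. The highest were VIM, at 121 and 162 RPKM, and KRT8, at 107 and 172 RPKM, in D391N and control cells. The summed level of the list was 343 to 396 RPKM in the D391N libraries and 478 to 527 RPKM in the controls. Log2 fold changes were -0.69 for KRT8, -0.60 for NEFL, -0.43 for VIM and -0.27 for KRT18. They were -0.08 for EYA1, -0.06 for PAX2, -0.0056 for INA, 0.06 for LHX1 and 0.09 for CDH2. The median was -0.08, against -0.09 over all genes tested. None of the 9 was called. VIM, KRT8 and KRT18 were lower in every D391N library than in any control, as were 20.7% of all genes tested. KRT8 (limma adjusted p = 0.0907 with all libraries) was called when D391N replicate 1 was left out, as were 10.9% of all genes tested. Of the other cell types, 0 of 4 endothelial markers in the table, 0 of 5 hepatocyte markers, 2 of 7 blood cell markers (PTPRC and HBB) and 3 of 5 fibroblast markers (COL1A1, DCN and PDGFRA) reached the filter. Their summed levels were 0.621 to 0.807, 1.54 to 2.38, 4.52 to 6.42 and 6.73 to 12.7 RPKM in the D391N libraries, against 0.573 to 1.04, 1.40 to 2.02, 5.80 to 9.30 and 7.16 to 8.22 RPKM in the controls. Of the 5 that reached the filter, only DCN separated the groups, at 3.04, 6.23 and 3.63 RPKM against 2.50, 2.01 and 2.36 RPKM. It was not called, and 10.5% of all genes tested were higher in every D391N library. The part of these marker levels in the results was not tested.

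The 8 genes covered a wide range of levels. PCDH7 was the highest in both groups and was followed by PCDH9, PCDH19, PCDH1 and PCDH18 in the control cells, with no overlap of the libraries between neighbours in this order. PCDH17, PCDH10 and PCDH8 came last, all under 0.3 RPKM in every library, and their ranges overlapped each other. In the D391N cells the order was PCDH7, PCDH9, PCDH18, PCDH1, PCDH19, PCDH10, PCDH17 and PCDH8, with overlapping ranges between PCDH18 and PCDH1 and among the last 3. PCDH19 thus took rank 3 in the controls and rank 5 in the D391N cells.

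**Figure D1:**
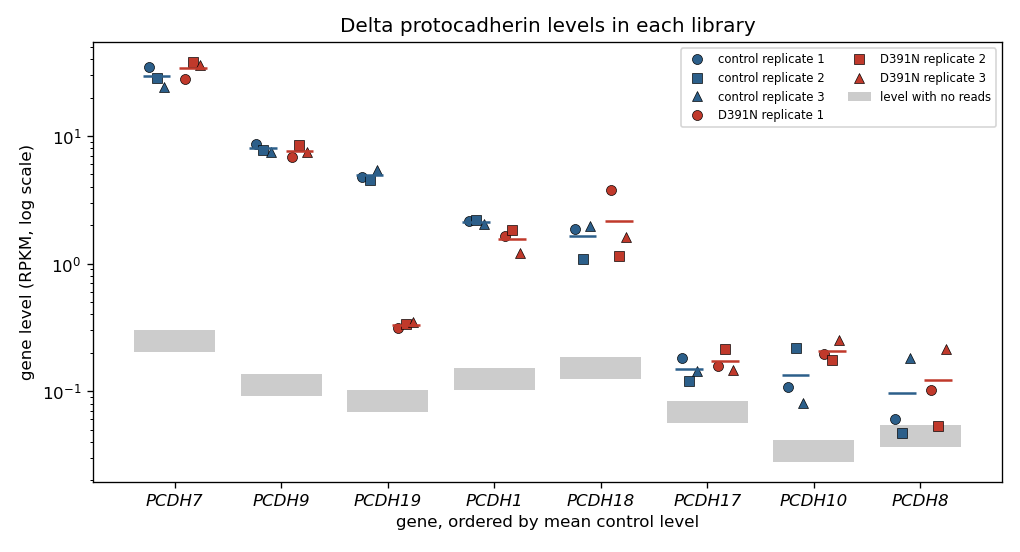
Gene levels in RPKM (log axis) of the 8 delta protocadherins in each of the 3 control (blue) and 3 D391N (red) libraries, with horizontal lines at the group means and grey bands over the range of levels that the transcripts of each gene would have without reads. PCDH19 lay between 4.55 and 5.44 RPKM in the controls and between 0.313 and 0.350 RPKM in the D391N libraries, and the groups overlapped for every other gene but PCDH1.

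PCDH19 is the X-linked gene among the 8, and encodes a homophilic adhesion protein that also associates with N-cadherin and whose variants cause an epilepsy of early childhood. Its gene (ENSG00000165194) lies on the minus strand of chrX:100291644-100410273 in GRCh38. Its levels were 0.313, 0.334 and 0.350 RPKM for D391N replicates 1, 2 and 3, and 4.77, 4.55 and 5.44 RPKM for control replicates 1, 2 and 3. Every D391N library was therefore below every control library, and the spread within each group was small. The D391N mean was 0.332 ± 0.0182 RPKM and the control mean 4.92 ± 0.463 RPKM (SD, n = 3 each), a ratio of 14.8, which leaves 6.75% of the control level. On the log2 scale the difference was -3.53. It was -2.15 with a pseudocount of 1 and -3.85 with 0.01, and between -3.59 and -3.46 when each library was left out in turn. Among the 20714 genes tested, 97 had a lower log2 difference. PCDH19 passed the filter only through its control libraries. From the levels and transcript lengths, about 34.5, 37.2 and 55.8 reads lay behind the D391N values and about 1123, 1102 and 912 behind those of the controls. A gene with these transcripts and no reads would have been listed at 0.0689 to 0.103 RPKM, so that the D391N cells kept a level above that without reads.

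Of the 4 annotated PCDH19 transcripts, 3 are long and protein-coding, and all of these were lower in every D391N library. The longest, ENST00000373034 (9756 nt), had 0.0413, 0.0897 and 0.119 RPKM in the D391N libraries and 3.47, 2.46 and 3.72 RPKM in the controls. ENST00000420881 (7936 nt) stood at 0.0841, 0.0580 and 0.0783 RPKM against 1.02, 1.15 and 1.0 RPKM. ENST00000255531 (7937 nt) had the widest spread in the controls, with 0.203, 0.856 and 0.618 RPKM against 0.0786, 0.0915 and 0.0775 RPKM. The control means were 38.6, 14.4 and 6.77 times the D391N means for these transcripts in the order given. For ENST00000420881 and ENST00000255531 the posterior variance of the log level was 0.975 to 1.21 in the D391N libraries, so that their ratios are uncertain. For ENST00000255531 it was also high in the controls, at 0.748 to 1.23. ENST00000373034 held 65.0% of the gene level in the controls and 24.7% in the D391N cells. The remaining transcript, ENST00000464981, is only 329 nt long and is annotated as a target of nonsense-mediated decay. It was listed at 0.109, 0.0951 and 0.0750 RPKM in the D391N libraries and at 0.0803, 0.0856 and 0.0986 RPKM in the controls, near the level without reads in both groups, yet it made up 28.3% of the summed level in D391N cells and 1.79% in controls. Over the long transcripts alone, an alternative chosen after seeing the data, the gene stood at 0.204, 0.239 and 0.274 RPKM against 4.69, 4.46 and 5.34 RPKM, a ratio of 20.2.

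**Figure D2:**
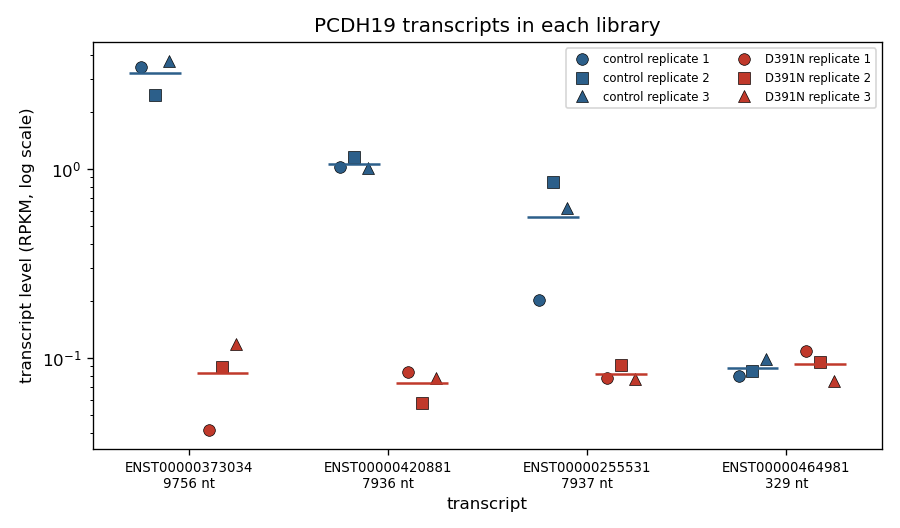
Levels in RPKM (log axis) of the 4 PCDH19 transcripts in each control (blue) and D391N (red) library, with horizontal lines at the group means and the transcript length in nt under each name. For the 3 long transcripts every D391N point lies below every control point, and for the transcript of 329 nt the points of both groups lie between 0.0750 and 0.109 RPKM.

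The long PCDH19 transcripts share most of their sequence, and short stretches decide to which of them a read can belong. ENST00000373034 has 1676 bases before its coding sequence (bases 1677 to 5120) that the other long transcripts lack, and a segment of 141 bases inside the coding sequence (bases 3822 to 3962) that they also lack. The first lines below show this place in the GENCODE sequences, 5′ to 3′, with the beginning of the segment in capitals. The last lines show the only difference between ENST00000255531 and ENST00000420881 that was found inside their shared stretch, 3 bases in capitals, and every read that lies elsewhere in that stretch matches both transcripts.
ENST00000373034, bases 3807 to 3836: cggacctacaactgcAGTAATTGTTTAACC
ENST00000255531, bases 2131 to 2160: cggacctacaactgcagaattgctgagtac
ENST00000255531, bases 2523 to 2550: tttaatcaagagcAGCtccaccttcaag
ENST00000420881, bases 2523 to 2547: tttaatcaagagctccaccttcaag
The division of control reads between the last pair, which ranged from 0.203 to 0.856 RPKM for ENST00000255531 while ENST00000420881 stayed between 1.0 and 1.15 RPKM, thus rests on few positions. The sum over transcripts does not depend on that division in the same way, since these transcripts are almost equally long.

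Of the other 7 genes, 4 passed the filter, and none of these was called as changed by limma at an adjusted p under 0.05 or had an unadjusted p under 0.05. Over all genes tested, 0.14% were called (29 genes, of which 28, or 0.135%, were lower and 1, or 0.00483%, was higher) and 22.7% had an unadjusted p under 0.05. The count of called genes depended on the libraries: it was 2261 (10.9%) without D391N replicate 1, 11 without D391N replicate 2, and 2 without D391N replicate 3 or without any of the control libraries, and it was 0 among the 4 delta protocadherins in each case. The median log2 fold change of all genes was -0.09. When libraries were centred on their median it was 0.13, and after quantile normalization 0.08, so that a fold change of this size has no fixed sign here.

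**Figure D3:**
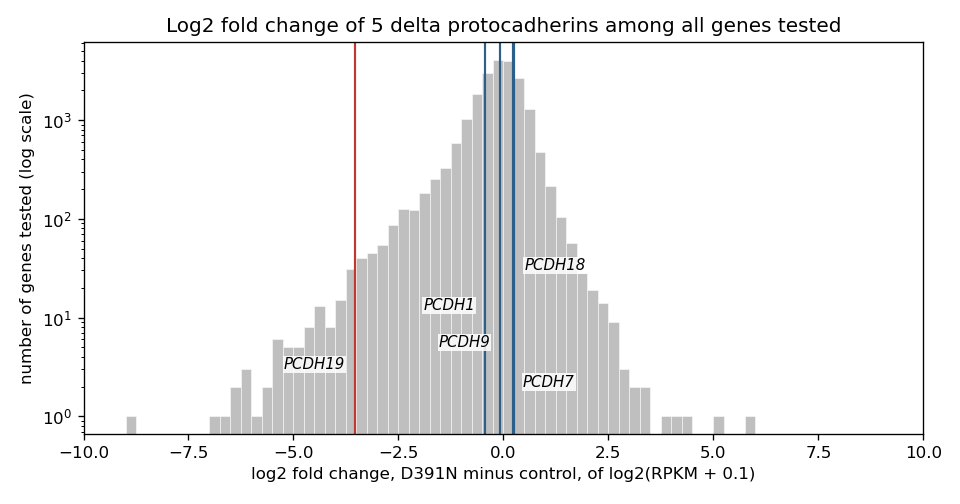
Number of genes (log axis) by log2 fold change of log2(RPKM + 0.1), D391N minus control, for all 20714 genes tested, with vertical lines at the 5 delta protocadherins that passed the filter. PCDH19 lies in the left tail at -3.53, and PCDH1 (-0.44), PCDH9 (-0.07, above 0 under another scaling), PCDH7 (0.22) and PCDH18 (0.26) lie in the bulk.

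PCDH7, a delta-1 member that binds protein phosphatase 1 and the phosphatase inhibitor SET and takes part in axon growth, was the most abundant delta protocadherin. Its gene (ENSG00000169851) lies on the plus strand of chr4:30720369-31146800. The levels of D391N replicates 1, 2 and 3 were 28.1, 37.8 and 36.3 RPKM, and those of control replicates 1, 2 and 3 were 35.0, 28.5 and 24.4 RPKM. The groups overlapped, with D391N replicate 1 among the controls and control replicate 1 among the D391N libraries. The means were 34.1 ± 5.19 and 29.3 ± 5.35 RPKM (SD, n = 3 each), and the log2 fold change of 0.22 (SE 0.19, limma adjusted p = 0.530) was within the spread between replicates (exact permutation p = 0.30, two-sided). Without D391N replicate 1 the groups separated, at a log2 fold change of 0.35 (limma adjusted p = 0.263), as did 18.9% of all genes tested, against 10.5% that were higher in every D391N library when all 6 were used.

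Of the 8 PCDH7 transcripts, 5 passed the filter and none was called, against 0.0604% of 54671 transcripts tested. The long coding transcript ENST00000511884 was higher in every D391N library, at 9.41, 11.7 and 11.9 RPKM against 9.05, 9.16 and 6.74 RPKM (log2 fold change 0.40, SE 0.25, limma adjusted p = 0.424). Among all transcripts tested, 10.1% were higher in every D391N library. ENST00000507864, which is 340 nt long and had the highest mean over all 6 libraries and the largest SD in RPKM, stood at 8.23, 16.2 and 10.6 RPKM against 11.0, 4.33 and 8.37 RPKM. ENST00000361762, another coding form, had means of 6.68 ± 1.03 and 6.02 ± 1.70 RPKM. The short ENST00000509925 stood at 0.526, 1.0 and 1.94 RPKM against 2.77, 2.33 and 1.85 RPKM, with an overlap of D391N replicate 3 and control replicate 3 (log2 fold change -1.09, SE 0.49, limma adjusted p = 0.302).

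PCDH9, another delta-1 member with high levels in brain, was the most even of the 8 genes. The gene (ENSG00000184226) lies on the minus strand of chr13:66302834-67230336. D391N replicates 1, 2 and 3 had 6.81, 8.45 and 7.54 RPKM, and control replicates 1, 2 and 3 had 8.63, 7.81 and 7.51 RPKM. These values overlap nearly completely, and the coefficient of variation over all 6 libraries was 8.58%. The means were 7.60 ± 0.819 and 7.98 ± 0.580 RPKM (SD, n = 3 each), with a log2 fold change of -0.07 (SE 0.16, limma adjusted p = 0.815, two-sided exact permutation p = 0.50), which became 0.15 with median centring, 0.12 with quantile normalization and 0.0018 when D391N replicate 1 was left out.

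The division of the PCDH9 level among its transcripts was less even. ENST00000377861 carried most of it and had means of 4.65 ± 0.674 and 4.74 ± 0.447 RPKM (log2 fold change -0.03). ENST00000544246 was lower in every D391N library, at 1.35, 1.25 and 0.192 RPKM against 2.47, 1.59 and 2.87 RPKM (log2 fold change -1.50, SE 0.68, limma adjusted p = 0.308), as were 15.6% of all transcripts tested. ENST00000456367 went the other way in its means, 1.89 ± 1.03 and 0.796 ± 0.504 RPKM, but its groups overlapped, at 0.895, 2.95 and 1.82 RPKM against 0.925, 1.22 and 0.239 RPKM (log2 fold change 1.22, SE 0.67, limma adjusted p = 0.38). ENST00000544246 thus made up 12.4% of the gene level in D391N cells and 29.1% in controls (exact permutation p = 0.10, two-sided, the lowest that 3 against 3 libraries can give), and ENST00000456367 24.1% and 9.86% (p = 0.20 by the same exact test). In D391N replicate 3 the log level of ENST00000544246 had a posterior variance of 1.47, so that its share there is uncertain. Shares of ENST00000543491 and ENST00000509925 of PCDH7 and of ENST00000615375 of PCDH17 also gave p = 0.10 by that exact test. Levels of isoforms of 1 gene depend on each other, since reads that match several are divided among them.

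PCDH1, a delta-1 member of epithelia and known as a susceptibility gene for airway hyperresponsiveness, was lower in every D391N library. The gene (ENSG00000156453) lies on the minus strand of chr5:141853090-141878410. In D391N replicates 1, 2 and 3 it reached 1.64, 1.85 and 1.21 RPKM, and in control replicates 1, 2 and 3 it reached 2.15, 2.20 and 2.05 RPKM. The controls were close together, and the D391N libraries were spread more widely below them. The means were 1.57 ± 0.324 and 2.14 ± 0.0774 RPKM (SD, n = 3 each), with a log2 fold change of -0.44 (SE 0.24, limma adjusted p = 0.320). The two-sided exact permutation p was 0.10, the smallest possible here, and 20.7% of all genes tested were lower in every D391N library. After median centring (-0.22) or quantile normalization (-0.23) the groups overlapped for PCDH1, while 11.5% and 13.3% of all genes were then lower in every D391N library. About 45.4 to 59.4 reads lay behind the D391N values and 81.9 to 134 behind the controls.

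No PCDH1 transcript reached 1 RPKM. ENST00000394536, a coding form of 3827 nt, had the widest separation, with 0.0707, 0.0888 and 0.0688 RPKM in the D391N libraries and 0.334, 0.389 and 0.263 RPKM in the controls. Its control mean was 4.32 times its D391N mean, and its share of the gene level was 4.93% in D391N cells and 15.3% in controls (two-sided exact permutation p = 0.10). It was picked out after the values were seen. In every D391N library its log level had a posterior variance of at least 1.09, so that its ratio and its share there are uncertain. The form with the highest level, ENST00000505937, is 825 nt long and annotated as a target of nonsense-mediated decay, and had 0.821, 0.646 and 0.424 RPKM against 0.797, 0.824 and 0.760 RPKM.

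PCDH18, a delta-2 member that binds the adaptor DAB1, had the widest spread relative to its mean of the tested delta protocadherins other than PCDH19 (SD of 51.4% of the mean over all 6 libraries). Its gene (ENSG00000189184) lies on the minus strand of chr4:137518918-137532494. Levels of 3.76, 1.14 and 1.62 RPKM were found for D391N replicates 1, 2 and 3, and of 1.86, 1.08 and 1.98 RPKM for control replicates 1, 2 and 3. D391N replicate 1 stood far above the other libraries, which lay between 1.08 and 1.98 RPKM in both groups. The means were 2.17 ± 1.39 and 1.64 ± 0.485 RPKM (SD, n = 3 each), with a log2 fold change of 0.26 (SE 0.47, limma adjusted p = 0.780, two-sided exact permutation p = 0.80). Without D391N replicate 1 the sign turned, to -0.21. The high value in that library came from ENST00000620262, a transcript of 553 nt without a defined coding sequence, at 2.36 RPKM against 0.294 and 0.239 RPKM in the other D391N libraries and 0.398, 0.0627 and 0.751 RPKM in the controls. The coding transcript ENST00000412923 (5102 nt) stood at 0.552, 0.326 and 0.614 RPKM against 0.749, 0.540 and 0.368 RPKM.

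**Figure D4:**
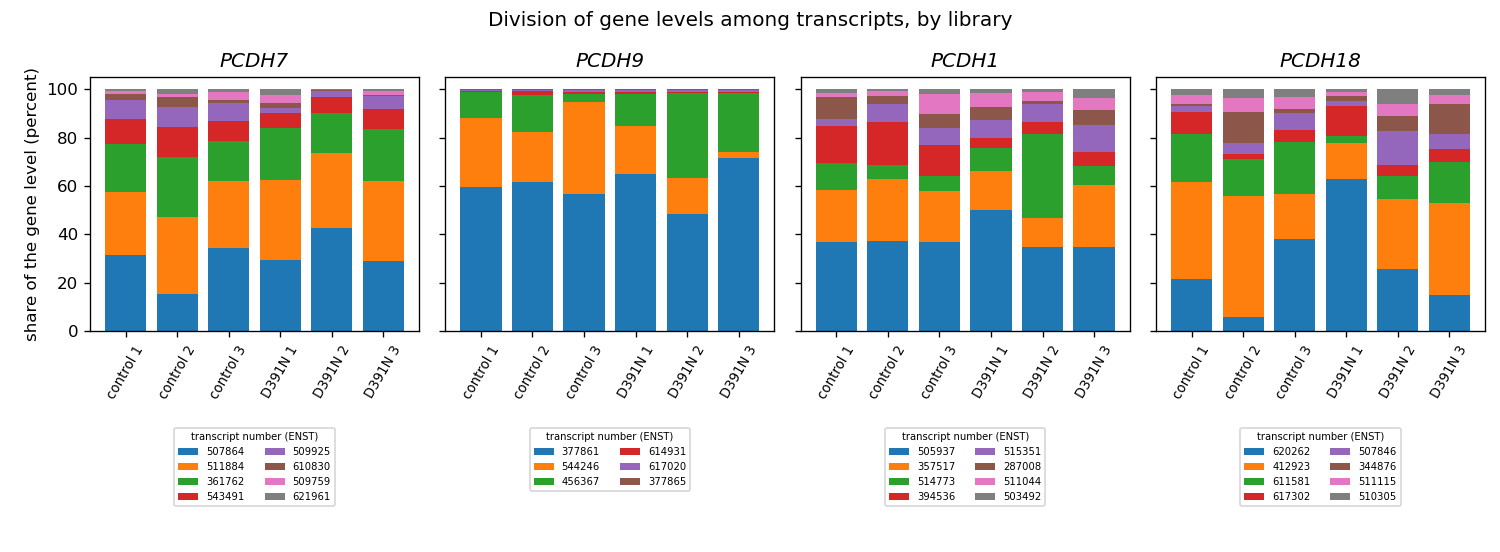
Share of the gene level (percent, stacked to 100) that each transcript of PCDH7, PCDH9, PCDH1 and PCDH18 held in each control and D391N library, with transcripts named by their ENST number without leading zeros. ENST00000544246 of PCDH9 held 29.1% on average in controls and 12.4% in D391N libraries, and ENST00000620262 of PCDH18 was largest in D391N replicate 1. Both transcripts were picked out after the values were seen.

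The other delta-2 members had too low a level to be tested. PCDH8, which takes N-cadherin from synaptic membranes upon activity, stood at 0.103, 0.0529 and 0.213 RPKM in the D391N libraries and 0.060, 0.0467 and 0.181 RPKM in the controls. PCDH10, which couples axon growth to the actin cytoskeleton, stood at 0.197, 0.175 and 0.252 RPKM against 0.108, 0.217 and 0.0801 RPKM. PCDH17, which acts at synapses of corticobasal circuits, stood at 0.156, 0.213 and 0.148 RPKM against 0.183, 0.120 and 0.143 RPKM. The groups overlapped for each of these genes. Without reads, PCDH8 would have been listed at 0.0368 to 0.0547 RPKM. Its values in D391N replicate 2 and control replicates 1 and 2 lay near that level. At most about 4.46 reads lay behind a PCDH8 value, 25.5 behind a PCDH10 value and 11.4 behind a PCDH17 value, which limits the precision of these values. The genes are PCDH8 (ENSG00000136099, chr13:52842889-52848640), PCDH10 (ENSG00000138650, chr4:133149294-133208606) and PCDH17 (ENSG00000118946, chr13:57630108-57729311).

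The summed level of the family overlapped between the groups. All 8 genes together came to 41.1, 49.98 and 47.6 RPKM in the D391N libraries and to 52.7, 44.5 and 41.8 RPKM in the controls, with means of 46.2 ± 4.59 and 46.3 ± 5.71 RPKM. The delta-1 genes summed to 43.2 ± 5.94 and 39.4 ± 5.96 RPKM and the delta-2 genes to 3.01 ± 1.36 and 6.94 ± 0.902 RPKM. Without PCDH19, the delta-2 sum was 2.67 ± 1.37 RPKM in D391N cells and 2.02 ± 0.486 RPKM in controls, with overlap of the libraries. The sums that include PCDH19 contain the values by which the family was chosen, and nothing is read from the difference of the delta-2 sums.

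**Figure D5:**
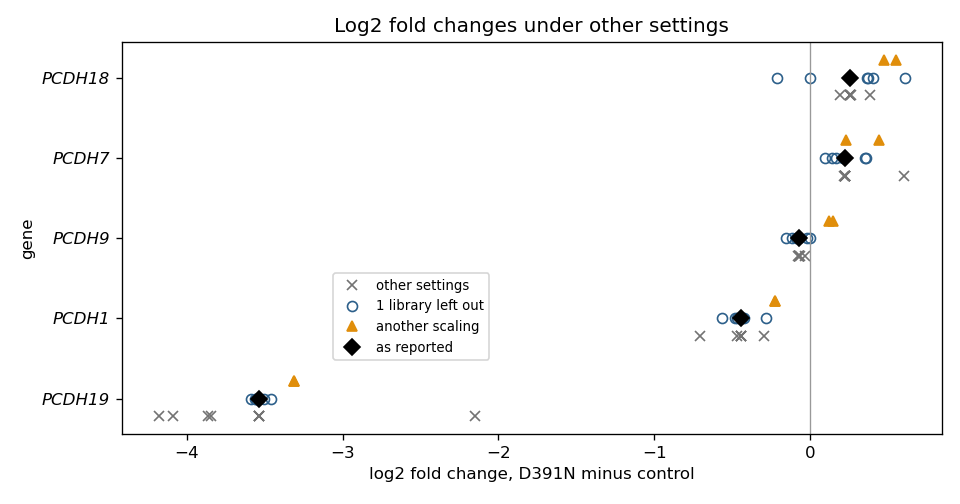
Log2 fold change (D391N minus control) of the 5 delta protocadherins that passed the filter, as reported (diamonds), with 1 library left out (circles), with median centring or quantile normalization (triangles) and under the other settings (crosses). PCDH19 stays between -4.18 and -2.15 and PCDH1 below 0, whereas PCDH9 lies on both sides of 0 by scaling and left-out library and PCDH18 by left-out library.

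Other cadherins of the same cells were compared by lists. PCDH11X (0.403 and 0.453 RPKM in D391N and control cells) and PCDH20 (0.0821 and 0.0293 RPKM), which are also placed with the delta protocadherins, were not tested. Of 53 clustered protocadherins, whose variable exons share constant ends so that reads are divided among them, 10 passed the filter, none was called and none separated the groups, with a median log2 fold change of 0.13. The highest of these were PCDHGC3 (4.21 ± 0.298 and 4.46 ± 0.539 RPKM), PCDHGB5 (3.53 ± 0.354 and 3.57 ± 0.631 RPKM) and PCDHA4 (2.59 ± 1.26 and 3.16 ± 0.219 RPKM). Of 18 classical and type II cadherins, 10 passed the filter, none was called and 2 had an unadjusted p under 0.05, with a median of -0.06. CDH2, the N-cadherin with which PCDH19 associates, stood at 43.7, 33.3 and 35.7 RPKM in the D391N libraries and at 34.1, 37.1 and 34.0 RPKM in the controls (log2 fold change 0.09, SE 0.15, limma adjusted p = 0.763). CDH3 (P-cadherin) had 12.8 ± 2.55 and 17.7 ± 2.76 RPKM and CDH1 (E-cadherin) 5.61 ± 1.43 and 5.49 ± 0.414 RPKM. The 2 genes of this list with an unadjusted p under 0.05 were CDH4 (1.51 ± 0.10 and 2.34 ± 0.246 RPKM) and CDH24 (0.937 ± 0.424 and 1.65 ± 0.117 RPKM), which were lower in every D391N library.

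Of 15 large atypical cadherins, 9 passed the filter, none was called and 3 had an unadjusted p under 0.05 (median -0.13). FAT1, which organises actin at cell contacts, stood at 36.5, 41.9 and 39.0 RPKM against 32.1, 33.4 and 33.5 RPKM, higher in every D391N library (log2 fold change 0.24, SE 0.13, limma adjusted p = 0.298). FAT3 had 14.6 ± 1.29 and 16.0 ± 1.5 RPKM and CELSR1 6.30 ± 1.17 and 6.98 ± 0.338 RPKM. The 3 genes were FAT4 (3.28 ± 0.379 and 2.35 ± 0.0562 RPKM), CELSR2 (3.44 ± 0.257 and 5.46 ± 1.09 RPKM) and CDH23. CDH23, a cadherin of the hair cell tip link, stood at 1.27, 1.04 and 1.02 RPKM against 2.70, 2.29 and 3.24 RPKM (log2 fold change -1.23, SE 0.25, limma adjusted p = 0.0882) and among the alternatives run was called only without D391N replicate 1.

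The cytoplasmic side was compared in the same way. Of 11 catenins and related genes, which link cadherins to actin and to Wnt signalling, 8 passed the filter, none was called and 2 had an unadjusted p under 0.05 (median 0.09). CTNNA1 had 109.9 ± 18.0 and 99.7 ± 6.28 RPKM, CTNNAL1 56.1 ± 7.84 and 45.5 ± 1.20 RPKM and CTNNB1 50.2 ± 4.87 and 47.0 ± 7.73 RPKM. The 2 genes were ARVCF (2.36 ± 0.402 and 3.48 ± 0.164 RPKM) and CTNNBIP1. CTNNBIP1, an inhibitor of beta-catenin, stood at 4.78, 2.46 and 3.07 RPKM against 9.30, 8.60 and 11.5 RPKM (log2 fold change -1.53, SE 0.27, limma adjusted p = 0.0771) and was called without D391N replicate 1. Of 7 known cytoplasmic or membrane partners of delta protocadherins, 6 passed the filter, none was called and 2 had an unadjusted p under 0.05 (median -0.24). Both of these encode catalytic subunits of protein phosphatase 1, and their log2 fold changes had opposite signs. PPP1CB stood at 72.2, 95.1 and 86.5 RPKM against 51.3, 48.8 and 45.6 RPKM (log2 fold change 0.79, SE 0.16, limma adjusted p = 0.0881, called without D391N replicate 1). PPP1CA stood at 16.4, 12.3 and 20.4 RPKM against 27.5, 30.9 and 23.7 RPKM (log2 fold change -0.76, SE 0.22, limma adjusted p = 0.131). The third subunit gene, PPP1CC, overlapped between the groups at 113 ± 27.3 and 131 ± 11.8 RPKM. SET had 1348 ± 219.8 and 1005 ± 43.9 RPKM (log2 fold change 0.41, SE 0.25, limma adjusted p = 0.357). It was higher in every D391N library, as were 10.5% of all genes tested.

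Of the 11 genes of the WAVE complex, 10 passed the filter, none was called and 1 had an unadjusted p under 0.05 (median -0.07). That gene, WASF1, had 28.5 ± 1.87 and 19.6 ± 3.57 RPKM (log2 fold change 0.55, SE 0.17, limma adjusted p = 0.145). NCKAP1, the subunit through which delta-2 tails are known to recruit the complex, stood at 53.6, 52.4 and 61.8 RPKM against 45.6, 47.3 and 40.4 RPKM (log2 fold change 0.33, SE 0.14, limma adjusted p = 0.229). CYFIP2 had 45.4 ± 3.41 and 46.9 ± 1.34 RPKM and WASF2 30.7 ± 4.39 and 47.2 ± 17.3 RPKM. All 10 genes of a list of RAC1 and the Arp2/3 complex passed the filter, none was called and 1, RAC1, had an unadjusted p under 0.05 (median 0.07). RAC1 had 104 ± 7.53 and 75.2 ± 10.9 RPKM, ARPC3 319 ± 61.2 and 239 ± 38.3 RPKM, ACTR3 106 ± 14.9 and 82.6 ± 12.2 RPKM and ARPC2 92.2 ± 10.2 and 94.3 ± 6.19 RPKM. These shares of unadjusted p values stand against 22.7% over all genes tested.

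The genes whose levels followed those of PCDH19 most closely over the 6 libraries were sought by Pearson r of log2(RPKM + 0.1) among 19186 other tested genes with an entry in the table of gene names, in which a few genes carry only their identifier. KSR1 (r = 0.99967), MOCS1 (0.99945), IST1 (0.9987), RTKN (0.9978) and CEBPE (0.997) came first, and 463 genes had r over 0.95. The 6 points form a cloud for each group, so that r is high wherever the spread within the groups is small beside the difference, and it is a description without a test. The size of the difference varied widely among these genes. KSR1, a scaffold of the Raf-MEK-ERK cascade, stood at 14.9, 14.9 and 15.2 RPKM in the D391N libraries and at 21.6, 21.6 and 21.9 RPKM in the controls, and IST1, an ESCRT-III protein, at 66.4, 66.6 and 67.0 RPKM against 86.3, 87.2 and 89.6 RPKM. CEBPE, a transcription factor of granulocytes, stood at 0.0430, 0.0184 and 0.0140 RPKM against 57.1, 71.2 and 54.9 RPKM. For PCDH7, 25 genes had r over 0.95, led by NAPEPLD (0.993), ENSG00000256100 (0.988), ENSG00000266356 (0.987), PUS3 (0.984) and LYPD1 (0.978). NAPEPLD, an enzyme of N-acylethanolamine synthesis, stood at 9.02, 12.1 and 11.6 RPKM against 11.3, 9.59 and 7.74 RPKM, with the same libraries high and low as for PCDH7.

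None of the tested genes next to PCDH19 on the X chromosome was called with all libraries. On the side of lower coordinates these were RPL6P29 at a distance of 2039 kb, DIAPH2 at 2687 kb and RPL26P36 at 7615 kb, and on the other side TSPAN6 at 217 kb, SYTL4 at 264 kb and PPIAP89 at 390 kb. TSPAN6, a tetraspanin, stood at 20.4, 15.1 and 25.6 RPKM in the D391N libraries and 24.1, 22.6 and 17.2 RPKM in the controls, and SYTL4, which acts in vesicle docking, at 3.86, 7.05 and 2.74 RPKM against 2.65, 4.05 and 2.67 RPKM. DIAPH2, a formin, was higher in every D391N library, at 10.3, 10.5 and 10.6 RPKM against 8.62, 8.43 and 8.42 RPKM (log2 fold change 0.30, SE 0.13, limma adjusted p = 0.234). The ribosomal protein pseudogene RPL6P29, called only without D391N replicate 1 among the alternatives run, stood at 0.923, 0.0320 and 0.115 RPKM against 2.71, 2.47 and 2.15 RPKM (log2 fold change -3.04, SE 0.75, limma adjusted p = 0.109), but it shares sequence with its parent gene and other copies, so that its level is uncertain. RPL26P36 and PPIAP89 are likewise copies of other genes, and their groups overlapped.

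Promoter sequences of RefSeq (GRCh38.p14, 250 bases before to 50 after the start) were available for 7 of the 8 genes, as PCDH10 had none in the table. The start used by the table is the outer edge of the gene as given above for 5 of them, but lies 8783 bases inside the gene of PCDH1 and 1636 bases inside that of PCDH17, so that for these genes the letters belong to an internal start. PCDH19 has the most CG dinucleotides of the 7, with 26 in 300 bases at 71% GC, against a median of 14 and 58.3% over 27305 promoters, and 70.2% of promoters have fewer. PCDH9 and PCDH8 have 20 each, PCDH7 16 and PCDH18 10, and the internal starts of PCDH17 and PCDH1 have 11 and 6. The motif TATAAA, searched on both strands, is present in the promoter of PCDH8 and in none of the other 6, and in 11.95% of all promoters. The 30 bases before the start used by the table are shown for the gene that was low in the D391N libraries, the gene with the highest level and the gene that was also lower in every D391N library, with CG dinucleotides in capitals.
PCDH19, minus strand of chrX:100410274-100410303: tttctcCGgctttctccagactcCGCGgcc
PCDH7, plus strand of chr4:30720339-30720368: CGgggagagagaggctgcaatctcctccct
PCDH1 (internal start), minus strand of chr5:141869628-141869657: ctcttactggctcctccagctggggcagac
These letters describe the reference sequence, and no measurement of the promoters was made.

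The levels of PCDH7 and PCDH9 have a limit of annotation. Within PCDH7 lie 3 annotated genes, all on the opposite strand, and within PCDH9 lie 6, of which 5 are on the opposite strand. PCDH17 overlaps 1 such gene, and the other 5 delta protocadherins, PCDH19 included, overlap none. The sources used here do not say whether reads were assigned by strand, and without that, reads from a gene and from its antisense partner cannot be told apart where their transcripts overlap.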

How the data were processed

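Total RNA of 3 D391N and 3 control samples was sequenced after rRNA depletion, and libraries were made with ScriptSeq v2. Adapters were removed by the authors (cutadapt), the reads were placed on Ensembl transcripts (hg38) with Segemehl, and levels were estimated with BitSeq. Versions are not given in the sources used here. Per library, the deposited table gives the natural log of RPKM of 207167 transcripts as a posterior mean, together with a variance. Read totals were not used here. The posterior variance (deposited by the authors as another measure) served to find transcripts with at least 3 estimated reads in an alternative. It was also used to pick transcripts without reads and to mark levels of single transcripts as uncertain.

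RPKM was the exponential of the posterior mean, and gene levels were sums over transcripts. Genes, and separately transcripts, that averaged 1 RPKM or more were tested on log2(RPKM + 0.1) with limma 3.58.1 (group as the only term, moderated with a trend on level) under R 4.3.3, and called means a Benjamini-Hochberg adjusted p under 0.05 over all features tested. Single values were compared with two-sided exact permutation tests over all divisions of the libraries, which cannot go below p = 0.10 with 3 against 3. These and other steps ran under Python 3.11.15 with numpy 2.4.6, pandas 2.3.3, scipy 1.17.1 and, for plots, matplotlib 3.10.9. Reads behind a value were approximated from its RPKM, the transcript length in GENCODE and the level of transcripts without reads. That annotation is later than the one of the authors, so lengths may differ, and 90.2% of transcripts had a length. Symbols were found for 88.2% of genes, and coordinates are from RefSeq GRCh38.p14. The procedure was tested on simulated data.

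The members and lists were chosen with earlier results of these data known. Named genes were the 8 members, DIS3L2, called genes and the 3 most abundant genes of each list, the 5 genes most like PCDH19 and PCDH7, and the 3 nearest tested neighbours of PCDH19 on each side. Genes with an unadjusted p under 0.05, genes called without D391N replicate 1, and single transcripts were named after their values were seen. The alternatives were other pseudocounts, filters and scalings, a replicate block, limma without trend, other ways to make gene levels, and each library left out. Deviations of libraries with the same replicate number correlated at 0.070, 0.22 and -0.11, and the labels name no shared batch.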

Additional observations from a re-analysis of the deposited data

How the results depend on the processing

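None of the 4 tested members other than PCDH19, and none of their transcripts, was called under any alternative run. The count of called genes, 29, was 6 with a minimum of 5 RPKM, 18 without a filter, 14 with median centring, 17 with quantile normalization, 16 and 61 with pseudocounts of 0.01 and 1, 18 with the top transcript of each gene, 2 with a replicate block, and 2 to 2261 with each library left out. The count of called transcripts, 33, was 17 with a minimum of 5 RPKM, 18 without a filter, 142 with a pseudocount of 1, 52 by limma without trend, 7 with a replicate block, and 2 to 4961 with each library left out. The members without overlap numbered 2, PCDH1 and PCDH19, of which PCDH19 was chosen for its low D391N values. Over all genes tested, 20.7% were lower and 10.5% higher in every D391N library. The count of members became 0 with a minimum of 5 RPKM, where neither was tested. It became 1 with median centring or quantile normalization, where the groups overlapped for PCDH1, and 3 without D391N replicate 1, where PCDH7 also separated. With the top transcript it was also 1, because the top transcript of PCDH1 averaged 0.712 RPKM and was not tested. Called genes in the pathway lists numbered 0, and 0 to 3 with each library left out, 3 without D391N replicate 1 (CDH23, CTNNBIP1 and PPP1CB). Apart from the filter, the cause was not tested. The block rests on replicate numbers only, and it changed no call among the members.

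Of the members' values, 104 stayed as reported and 9 moved by more than the spread between replicates (PCDH19, PCDH10 and PCDH17), and 4 changed sign. The low PCDH8, not tested and listed among those that stayed, also turned, from 0.19 to -0.091 without D391N replicate 3. Log2 fold changes of PCDH9 were 0.15 with median centring, 0.12 with quantile normalization and -0.15 to 0.0018 with each library left out, and those of PCDH18 were -0.21 to 0.61 with each library left out. Of the other named genes, 721 values stayed as reported, 3 passed the threshold (KRT8, PPP1CB and RPL6P29 without D391N replicate 1) and 41 changed sign, none of them called. With median centring they were 0.18 for ARPC2, 0.059 for CELSR1, 0.17 for CYFIP2, 0.088 for FAT3, 0.21 for PCDHGB5, 0.14 for PCDHGC3, 0.18 for PDGFRA and 0.14 for TSPAN6. Quantile normalization gave 0.042 for CELSR1, 0.22 for PCDHGB5, 0.16 for PCDHGC3 and 0.20 for PDGFRA. The top transcript gave 1.35 for ARPC2, -0.0060 for CDH1, 0.93 for CDH3, 0.42 for CELSR1, -0.39 for NAPEPLD, 0.057 for PCDHGB5, 0.70 for PCDHGC3 and -0.094 for PTPRC. With each library left out, values ran from -0.11 to 0.047 for ARPC2, -0.17 to 0.20 for CDH1, -0.025 to 0.17 for CDH2, -0.019 to 0.22 for CTNNB1, -0.095 to 0.012 for CYFIP2, -0.60 to 0.0096 for HBB, -0.16 to 0.082 for PCDHGB5, -0.17 to 0.0048 for PCDHGC3, -0.22 to 0.14 for PDGFRA, -0.078 to 0.11 for PTPRC, -0.36 to 0.64 for RPL26P36 and -0.26 to 0.12 for TSPAN6. Settings that need the fit gave no value for PCDH8, PCDH10 and PCDH17, and the filter of 5 RPKM none for PCDH1, PCDH18 and PCDH19. The top transcript gave none for PCDH1 and PCDH18. The depth behind PCDH8, PCDH10 and PCDH17 limits what can be seen of them.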
